A study of Homo sapiens with 6 samples.

Results

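The messenger RNAs described here encode 36 nuclear-encoded subunits of mitochondrial complex I (NADH:ubiquinone oxidoreductase), chosen by symbol from the 25706 genes of the deposited table. Each symbol had 1 row. RNA selected on oligo(dT) beads was sequenced in 6 libraries of MDA-MB-231, a long-established cell line grown from a triple-negative breast cancer. In 3 of them tsRNA-Gly-5-0006, a small RNA cut from a glycine tRNA, was overexpressed, and 3 were controls. The submitters report that this small RNA is low in breast cancer tissue, and the libraries compare the transcriptomes of cells with and without its overexpression. The labels name no further treatment, give no dose or time, and leave unstated what the control cells were given. Whether replicates came from separate cultures is not stated either, and if they did not, the p-values reflect only the spread between these samples. The small RNA itself was not measured here.

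Complex I takes electrons from NADH in the mitochondrial matrix, passes them along iron-sulphur clusters to ubiquinone, and pumps protons across the inner membrane. It has an arm that reaches into the matrix, where NADH is oxidised, and a membrane arm whose proton-pumping core is made in the mitochondrion from the MT-ND genes. The nuclear genes supply the core subunits of the matrix arm and the many accessory subunits that surround both arms, and their products are imported and joined to the MT-ND proteins by assembly factors. Cancer cells use the complex to regenerate NAD+ as well as to respire.

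Between overexpressing and control cells, most nuclear complex I mRNAs were bounded near equal levels: for 31 of 36, the 95% confidence interval of the fold change lay within 1.5-fold in either direction. The same held for 6496 of all 15951 genes tested and for 29 of 41 nuclear-encoded subunits of complexes II to V. In the edgeR quasi-likelihood test, 0 of the 36 members and 0 of all 15951 genes tested (0.0%) had an adjusted p under 0.05, and the adjusted p of every member was 0.994 or more. The unadjusted p was under 0.05 for 1 member, NDUFA5, beside 611 of all genes tested (3.83%). That member was higher in overexpressing cells, as were 409 of all genes (2.56%), and 0 members were among the 202 lower ones (1.27%). DESeq2 called 0 members and 12 of the genes tested (0.0752%). By its unadjusted p it also had 1 member under 0.05, NDUFA5, beside 666 of all genes (4.18%), of which 504 were higher (3.16%). Genes to which DESeq2 gave no p count as not called in these shares. Without overexpression 1, edgeR called 0 members and 4 of 16213 genes (0.0247%). The log2 fold change (overexpression over control) was positive for 15 members and negative for 21. Its median was -0.013 over the members and 0.023 over all genes tested, of which 54.8% were positive. The sign of the members' median was not stable: it was -0.045, with 12 positive, under upper-quartile scaling, and between 0.019 and 0.027, with 21 or 22 positive, in limma on the log2 FPKM. The limma fits with a filter left out NDUFA5 and so covered 35 members.

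All 36 members passed the filter on low counts, and 35 had a mean of at least 1 FPKM (the deposited unit of level, fragments scaled for gene length and library depth). For 32 of 36 the log2 fold change itself was under 0.2 in size, beside 9258 of all 15951 genes tested. The median half-width of the interval was 0.30 over the members, 0.30 over the subunits of complexes II to V and 0.53 over all genes tested. Library totals ran from 54371226 to 74586916 deposited counts, which are derived from coverage and are not tallies of read pairs. In whole-cell RNA such as this, a lower number of expressing cells and less RNA per cell cannot be told apart.

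The line was checked against its markers. VIM, the mesenchymal intermediate filament vimentin, lay between 365 and 460.0 FPKM, and CD44, AXL, CAV1 and MSN were present in every library. CDH1 and EPCAM, epithelial adhesion genes, reached at most 0.0424 and 0.283 FPKM, and PGR, the progesterone receptor, was at 0 in 5 of 6 libraries. ERBB2, which encodes the HER2 receptor, was at 5.12 to 6.39 FPKM. The epithelial keratins KRT8, KRT18 and KRT19 were high in both groups. Overexpression 1 stood apart from the other libraries by its fibroblast markers. Of the 14 on that list, 13 were above 0 there and 9 or 10 elsewhere, and their summed level was 193 CPM (counts scaled to library size) against 52.0 to 76.2 in the other 5 libraries. COL3A1, DCN and FAP were at 0 in those 5. The 8 leukocyte and endothelial markers summed to between 34.05 and 39.4 CPM in all libraries. Results that rest on overexpression 1 are therefore given with and without it.

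The first 240 coding bases of 4 members are printed because the libraries differed in how the base composition of these mRNAs went with their level. NDUFA5 and NDUFB3 have the lowest share of G and C among the members, and NDUFS7 and NDUFB7 the highest. They are the coding strands of GENCODE 29 transcripts on hg38, 5′ to 3′, from the start codon, with every G and C in capitals. NDUFA5 lies at chr7:123536997-123557904 on the minus strand, NDUFB3 at chr2:201071433-201085750 on the plus strand, NDUFB7 at chr19:14566078-14572066 on the minus strand and NDUFS7 at chr19:1383527-1395584 on the plus strand. Their full coding sequences run to 348, 294, 411 and 639 bases in that order, without the stop codon.
NDUFA5: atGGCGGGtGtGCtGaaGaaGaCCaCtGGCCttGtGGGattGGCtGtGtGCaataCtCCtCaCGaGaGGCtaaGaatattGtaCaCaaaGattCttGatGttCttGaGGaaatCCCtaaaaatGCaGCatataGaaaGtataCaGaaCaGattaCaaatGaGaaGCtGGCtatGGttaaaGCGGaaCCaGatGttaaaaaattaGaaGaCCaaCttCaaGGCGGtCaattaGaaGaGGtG
NDUFB3: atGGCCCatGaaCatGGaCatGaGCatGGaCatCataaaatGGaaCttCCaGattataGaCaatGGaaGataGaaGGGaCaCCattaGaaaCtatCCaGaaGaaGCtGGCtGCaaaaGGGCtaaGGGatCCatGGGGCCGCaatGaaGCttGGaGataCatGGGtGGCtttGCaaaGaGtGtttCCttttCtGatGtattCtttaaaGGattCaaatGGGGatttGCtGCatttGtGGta
NDUFB7: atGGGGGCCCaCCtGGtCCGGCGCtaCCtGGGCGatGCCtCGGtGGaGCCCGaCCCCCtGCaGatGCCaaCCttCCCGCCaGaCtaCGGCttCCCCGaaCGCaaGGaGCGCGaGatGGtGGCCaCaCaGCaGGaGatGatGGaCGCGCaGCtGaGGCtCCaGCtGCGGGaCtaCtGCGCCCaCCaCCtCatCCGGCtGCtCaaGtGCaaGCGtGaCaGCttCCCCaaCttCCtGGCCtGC
NDUFS7: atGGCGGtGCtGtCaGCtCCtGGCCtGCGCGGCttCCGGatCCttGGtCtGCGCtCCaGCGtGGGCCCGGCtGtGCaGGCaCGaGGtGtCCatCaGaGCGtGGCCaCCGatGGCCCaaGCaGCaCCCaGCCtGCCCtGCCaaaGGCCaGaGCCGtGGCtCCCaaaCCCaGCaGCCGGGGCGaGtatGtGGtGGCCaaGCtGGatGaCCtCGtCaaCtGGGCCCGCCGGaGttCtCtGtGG
Over the full coding sequence, the share of G and C was 42.5% in NDUFA5, 42.9% in NDUFB3, 65.9% in NDUFB7 and 66.2% in NDUFS7. In the first pair the runs of lower-case a and t are long, as in the middle of NDUFA5, while capitals dominate NDUFB7 and NDUFS7 from end to end.

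The members span more than 3 orders of magnitude in deposited FPKM, from a mean of 0.535 for NDUFA5 to 1419 for NDUFB7, with a median of 20.5. NDUFB7 sits on the intermembrane-space face of the distal membrane arm and belongs to the twin-cysteine-motif proteins. It had 1374, 1383 and 1549 FPKM in control 1, 2 and 3, and 1437, 1065 and 1707 FPKM in overexpression 1, 2 and 3. Overexpression 2 was the lowest library and overexpression 3 the highest, so the groups overlapped, and the log2 fold change was -0.062 (unadjusted p 0.776, SE 0.21). NDUFA11, a membrane subunit where complex I meets other complexes of the chain, came next with 143, 144 and 156 FPKM in the controls, and 148, 129.9 and 169 FPKM in the overexpressing libraries. NDUFA13, also known as GRIM-19 and first described as a cell-death regulator, followed with 136, 134 and 156 FPKM in the controls, and 129.6, 119 and 151 FPKM in the overexpressing libraries. In both genes overexpression 2 was lowest, the other libraries overlapped, and the log2 fold changes were -0.019 (unadjusted p 0.907, SE 0.15) and -0.13 (unadjusted p 0.432, SE 0.16). The sum of the 36 members was 2859 ± 152 FPKM in control libraries and 2855 ± 418 with overexpression (SD, n = 3 each). Without NDUFB7 it was 1423 ± 59.3 and 1452 ± 96.2.

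At the low end stood NDUFA5, NDUFA9 and NDUFB3. NDUFA9, a subunit with a dehydrogenase fold that binds NADPH at the foot of the matrix arm, had 2.15, 2.78 and 2.11 FPKM in the controls, and 2.64, 2.48 and 2.05 FPKM in the overexpressing libraries. The groups covered much the same range, and its log2 fold change was -0.021 (unadjusted p 0.877, SE 0.13). The order of levels depends on the length by which a gene is divided. Set against the FPKM of 681 genes with a single transcript, the deposited FPKM imply gene model lengths of 421 bases (NDUFA1) to 19374 (NDUFA10), more than 2 times the principal transcript for 23 of 36 members. On CPM per kilobase of the principal transcript, the range was 3.19 (NDUFA9) to 1566 (NDUFB7). The Spearman correlation of the 2 sets of levels was 0.84 across the 36 genes, which share libraries and are not replicates. The plot of levels by library shows both the range and the overlap of the groups.

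**Figure D1:**
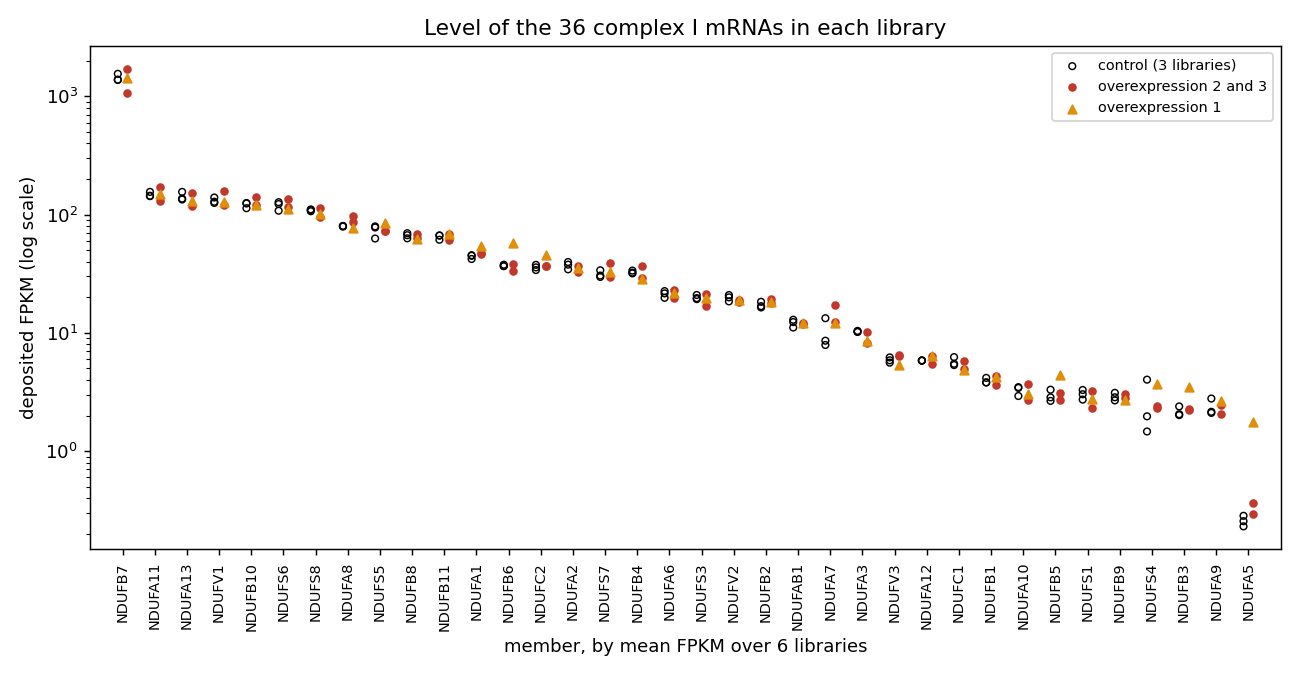
Deposited FPKM (log axis) of the 36 members in each of 6 libraries, ordered by mean. Open circles are the 3 controls, filled circles overexpression 2 and 3, triangles overexpression 1. The means run from 1419 (NDUFB7) down to 0.535 (NDUFA5), and the triangle of NDUFA5 stands apart from its other 5 points.

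Among the members, 6 are core subunits of the path from NADH to ubiquinone. Of their log2 fold changes, 2 were positive, and the median was -0.094. NDUFS1 encodes the largest of them, which holds several iron-sulphur clusters. It had 3.03, 3.29 and 2.73 FPKM in control 1, 2 and 3, and 2.74, 3.21 and 2.33 FPKM in overexpression 1, 2 and 3. Overexpression 3 was lowest and control 2 highest, and the groups overlapped. Its log2 fold change was -0.18 (unadjusted p 0.153, SE 0.11), and -0.16 without overexpression 1. With a correction for GC content in each library it was -0.29 (unadjusted p 0.0423). NDUFS1 was the only member under 0.05 in that fit, beside 576 of all 15951 genes tested. NDUFV2, an iron-sulphur protein of the NADH-oxidising tip, had 20.9, 19.96 and 18.5 FPKM in the controls, and 18.8, 18.99 and 18.4 FPKM in the overexpressing libraries. Its overexpressing libraries lay within a narrow range beside the lowest control. The log2 fold change was -0.12 (unadjusted p 0.233, SE 0.091). The other 4 core genes had log2 fold changes between -0.11 and 0.070. They are NDUFV1, which binds NADH and its flavin cofactor, NDUFS3, a structural subunit near the ubiquinone end, and NDUFS7 and NDUFS8, which carry the last clusters before ubiquinone. In all 4, overexpression 2 was the lowest library and overexpression 3 the highest. NDUFV1, for example, stood at 125, 128 and 139 FPKM in the controls, and 128, 121 and 159 FPKM in the overexpressing libraries. None of the 6 had groups that were separate.

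Accessory subunits of the matrix arm held the largest fold change of the 36, with 1 library behind it. Of 9 genes, 4 had a positive log2 fold change, and their median was -0.0042. NDUFA5, an accessory subunit of the ubiquinone-binding part, had 0.256, 0.231 and 0.284 FPKM in control 1, 2 and 3, and 1.78, 0.296 and 0.364 FPKM in overexpression 1, 2 and 3. Overexpression 1 was far above every other library, and the other 2 overexpressing libraries were slightly above the highest control. In scaled CPM, overexpression 2 (4.23) lay below control 3 (4.50), so the groups overlapped on that scale. Mean levels were 0.257 ± 0.0264 FPKM in control libraries and 0.813 ± 0.838 FPKM with overexpression (SD, n = 3 each). The log2 fold change was 1.58 (unadjusted p 0.0420, SE 0.64), with a 95% interval from 0.074 to 3.08. Without overexpression 1 it was 0.34 (SE 0.21, unadjusted p 0.145). With the GC correction it was 1.02 (SE 0.47, unadjusted p 0.0629). The fibroblast markers described above were high in that same library, and their part in the value was not tested.

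NDUFA7, a small subunit that reaches along the matrix arm, had 7.90, 13.3 and 8.58 FPKM in control 1, 2 and 3, and 12.1, 12.4 and 17.3 FPKM in overexpression 1, 2 and 3. Control 2 was above overexpression 1 and 2, so the groups overlapped. The log2 fold change was 0.47 (unadjusted p 0.111, SE 0.26), and without overexpression 1 it was 0.57 (unadjusted p 0.0452), where 468 of 16213 genes (2.89%) had an unadjusted p under 0.05, 212 of them higher (1.31%). NDUFA7 was the only member of that fit under this limit. ENSG00000167774, a gene listed without a symbol, overlaps it on the same strand, and it tended to be low where NDUFA7 was high. The overlapping row stood at 13.1, 1.17 and 9.91 CPM in the controls and 5.16, 2.76 and 1.44 CPM in the overexpressing libraries. NDUFA7 itself stood at 12.2, 19.9 and 13.6 CPM in the controls and 17.5, 17.6 and 28.1 CPM in the overexpressing libraries. The controls with less NDUFA7 were the ones where the other row was high. Summed, the 2 rows came to 23.3 ± 2.12 CPM in control libraries and 24.2 ± 4.76 with overexpression (SD, n = 3 each). The log2 ratio of these means was 0.053, against 0.47 for NDUFA7 alone.

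NDUFS4 is needed to hold the NADH-oxidising tip on the matrix arm and is a known gene of Leigh syndrome. It had 1.97, 4.02 and 1.47 FPKM in control 1, 2 and 3, and 3.72, 2.32 and 2.41 FPKM in overexpression 1, 2 and 3. Control 2 and overexpression 1 were high, and the remaining 4 libraries were lower. Its log2 fold change of 0.15 (unadjusted p 0.711, SE 0.38) ran from -0.11 to 0.66 as single libraries were left out. NDUFA2, a subunit with a thioredoxin-like fold, had 34.4, 37.7 and 39.7 FPKM in the controls, and 35.5, 32.8 and 37.1 FPKM in the overexpressing libraries. Overexpression 2 was lowest and control 3 highest, with overlapping groups, and the log2 fold change was -0.13 (unadjusted p 0.340, SE 0.12). The other matrix-arm genes, NDUFA6, NDUFA12, NDUFS6 and NDUFV3, had log2 fold changes between -0.021 and 0.0063. NDUFA12, the subunit at the place where NDUFAF2 sits during assembly, had 5.81, 5.85 and 5.84 FPKM in the controls, and 6.42, 6.31 and 5.45 FPKM in the overexpressing libraries. Its standard error of 0.082 was the smallest of the 36.

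On the proximal part of the membrane arm, 4 of 9 log2 fold changes were positive and the median was -0.019. NDUFA1, a single-span membrane subunit encoded on the X chromosome, had 42.1, 45.3 and 44.9 FPKM in control 1, 2 and 3, and 54.6, 46.9 and 46.6 FPKM in overexpression 1, 2 and 3. Every overexpressing library was above every control, though overexpression 2 and 3 exceeded control 2 only slightly. The log2 fold change was 0.12 (unadjusted p 0.339, SE 0.12), and 0.060 without overexpression 1. NDUFA1 and NDUFA5 were the 2 members whose groups did not overlap in FPKM, both higher in overexpressing cells, beside 905 of all genes tested in that direction (5.67%) and 1311 in either (8.22%). No member was separate in the lower direction, where 406 of all genes (2.55%) were. In scaled CPM the groups of NDUFA1 and NDUFA5 overlapped, with overexpression 2 below control 3 in each. The values were 20.1 against 21.5 CPM for NDUFA1 and 4.23 against 4.50 CPM for NDUFA5.

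NDUFA3, a small membrane subunit, had 10.2, 10.4 and 10.2 FPKM in the controls, and 8.57, 8.26 and 10.2 FPKM in the overexpressing libraries. Overexpression 1 and 2 were low, and overexpression 3 was level with the controls. At -0.22 (unadjusted p 0.178, SE 0.15) its log2 fold change was the most negative of the 36. NDUFC1, another small membrane subunit, had 6.24, 5.48 and 5.34 FPKM in the controls, and 4.85, 5.73 and 4.95 FPKM in the overexpressing libraries. Overexpression 1 and 3 were below all controls and overexpression 2 was not, and the log2 fold change was -0.18 (unadjusted p 0.199, SE 0.13). NDUFA10, which has a nucleoside-kinase fold on the matrix face, had 3.42, 3.47 and 2.93 FPKM in the controls, and 3.03, 3.71 and 2.71 FPKM in the overexpressing libraries. Library 3 of each group was the lowest in it, and the log2 fold change was -0.11 (unadjusted p 0.364, SE 0.11). NDUFA8 and NDUFS5, which like NDUFB7 face the intermembrane space, were at 0.074 (unadjusted p 0.520, SE 0.11) and 0.028 (unadjusted p 0.832, SE 0.13).

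NDUFC2, a membrane subunit beside MT-ND2, had a log2 fold change of 0.10 (unadjusted p 0.374, SE 0.11), or 0.0041 without overexpression 1. It shares its strand with the readthrough gene NDUFC2-KCTD14. NDUFC2 stood at 86.5, 92.8 and 93.5 CPM in the controls and 109.6, 85.5 and 97.7 CPM in the overexpressing libraries. Overexpression 1 was the highest. The readthrough row had 1648, 1760 and 2178 deposited counts in the controls and 684, 1718 and 1687 in the overexpressing libraries, with overexpression 1 the lowest. The sum of both was 120.7 ± 3.31 CPM in control libraries and 118.0 ± 4.99 with overexpression (SD, n = 3 each), and the log2 ratio of the means was -0.033. Overlap was common among these genes: 22 members had an overlapping row in the table and 14 had one on the same strand. For 4 of them that row exceeded 10% of the member's own count, the other 2 being NDUFB2 with ADCK2 and NDUFS3 with PTPMT1. Rows on the same strand can share reads whatever the strandedness of the libraries. That strandedness is not given in the sources used here, so rows on opposite strands may share reads too.

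**Figure D2:**
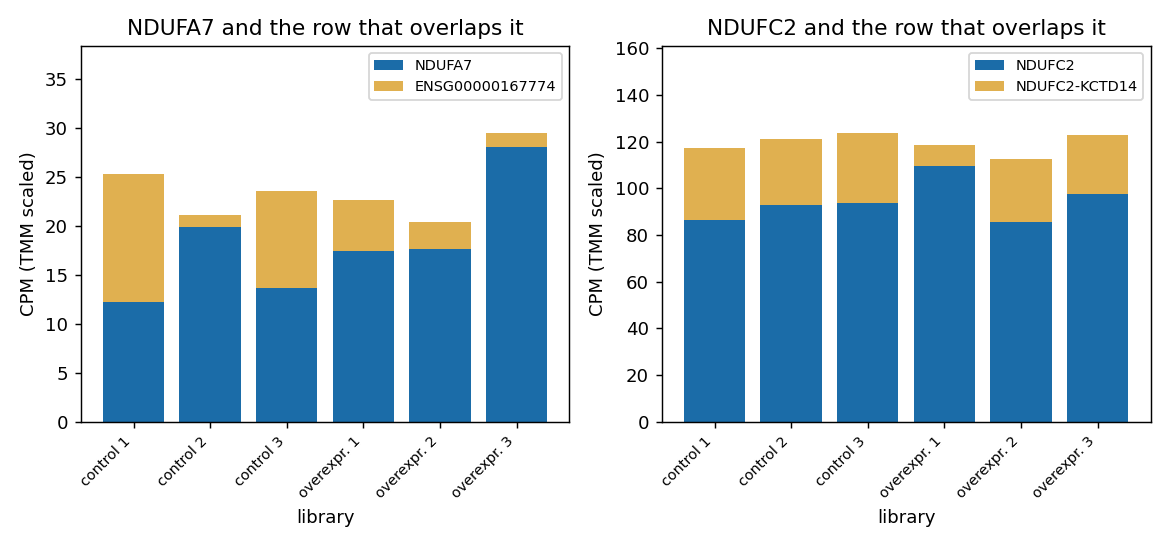
Scaled CPM of NDUFA7 (left) and NDUFC2 (right) in each library, with the row that overlaps each on the same strand stacked above it. The NDUFA7 part varies between 12.2 and 28.1 CPM while the stack varies between 20.4 and 29.5, and the NDUFC2 stack stays between 112.8 and 123.9 CPM.

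In the distal membrane arm, whose subunits carry the NDUFB names, 5 of 11 log2 fold changes were positive and the median was -0.0012. NDUFB3, a single-span membrane subunit, had 2.02, 2.39 and 2.05 FPKM in control 1, 2 and 3, and 3.50, 2.21 and 2.25 FPKM in overexpression 1, 2 and 3. Overexpression 1 was the highest library and the other 5 overlapped. Its log2 fold change was 0.25 (unadjusted p 0.290, SE 0.22), and 0.031 without overexpression 1. NDUFB6 had 36.7, 36.7 and 37.7 FPKM in the controls, and 57.7, 33.3 and 38.3 FPKM in the overexpressing libraries. NDUFB5 had 2.85, 3.31 and 2.66 FPKM in the controls, and 4.43, 3.09 and 2.68 FPKM in the overexpressing libraries. Both were again highest in overexpression 1, with the other 5 libraries overlapping. Their log2 fold changes were 0.17 (unadjusted p 0.396, SE 0.19) and 0.16 (unadjusted p 0.390, SE 0.18). Without overexpression 1 they were -0.066 and -0.050. The other 8, NDUFB7 among them, had log2 fold changes between -0.10 (NDUFB4) and 0.069 (NDUFB2). NDUFB8, NDUFB10 and NDUFB11 each lay over 60 FPKM in every library, and NDUFB1 and NDUFB9 under 5.

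NDUFAB1, the mitochondrial acyl carrier protein, is shared between complex I and mitochondrial fatty acid synthesis and binds accessory subunits of the LYR family such as NDUFA6 and NDUFB9. It stood at 11.1, 12.9 and 12.3 FPKM in the controls, and 12.1, 11.8 and 12.2 FPKM in the overexpressing libraries. The overexpressing libraries lay inside the range of the controls, and the log2 fold change was -0.053 (unadjusted p 0.678, SE 0.12). NDUFA6 and NDUFB9 were at -0.021 (unadjusted p 0.883, SE 0.14) and -0.056 (unadjusted p 0.677, SE 0.13).

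**Figure D3:**
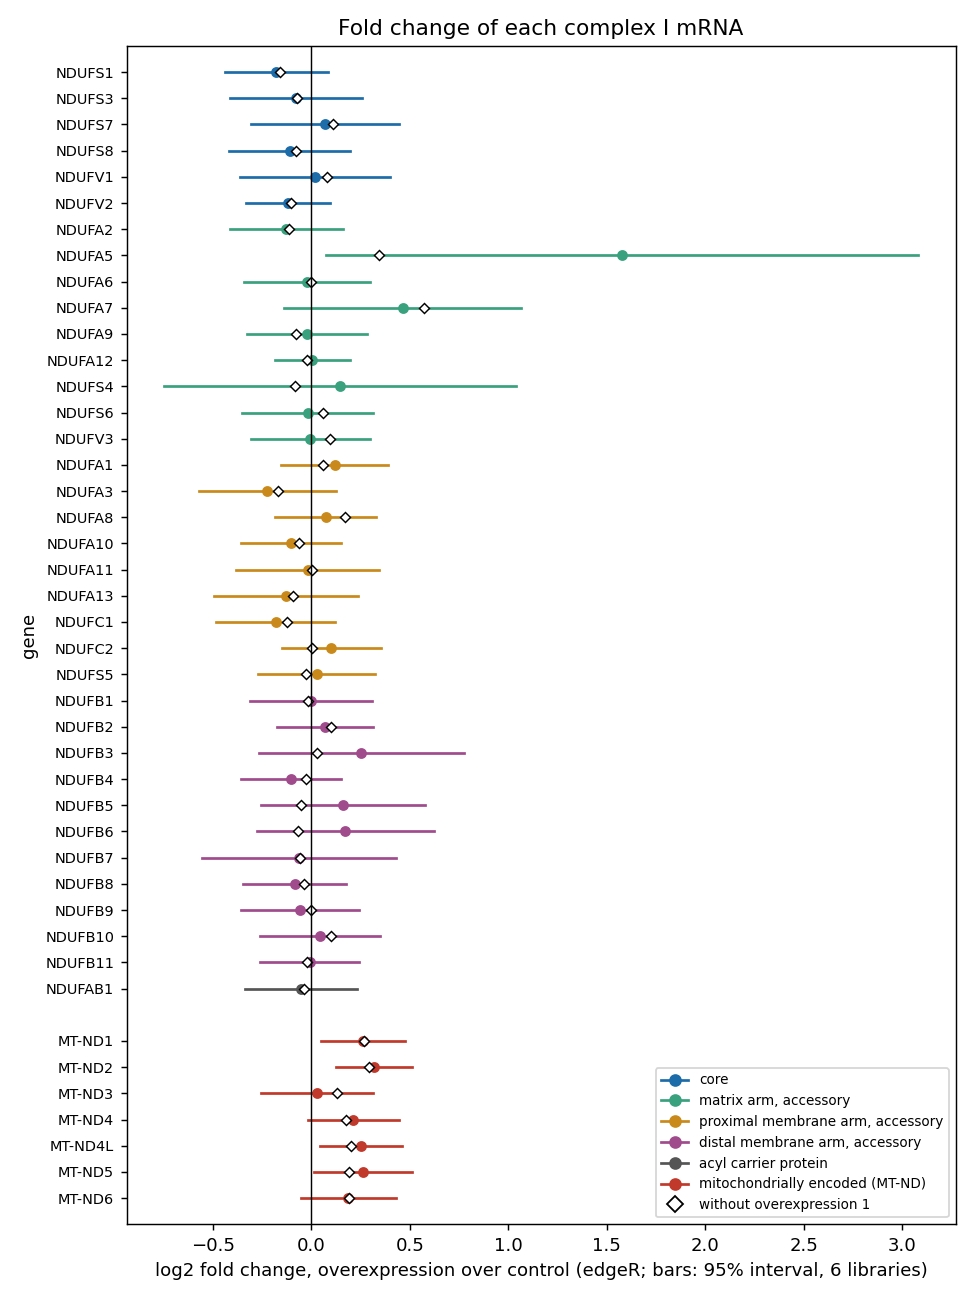
Log2 fold change of each of the 36 nuclear members, grouped by role, and of the 7 MT-ND mRNAs, from edgeR. Bars are 95% intervals over 6 libraries, and open diamonds are the estimates without overexpression 1. Of the nuclear members, 31 intervals lie within 1.5-fold, and the diamond of NDUFA5 lies at 0.34 against 1.58 for its point.

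Within a library the members tended to deviate together, and the direction was not the same in the 3 overexpressing libraries. Deviation is here the log2 CPM of a gene minus the mean of the 3 controls. Its median over the members was -0.084, -0.12 and 0.15 in overexpression 1, 2 and 3, and -0.059, -0.024 and 0.066 in control 1, 2 and 3. In overexpression 3, 27 of 36 members were above the control mean, and in overexpression 2, 7 were. Control 3 had 26 above it and control 1 had 8, so shifts of this kind occurred within the control group too. Since that mean is made of the controls, the deviations of a gene cancel out over the 3 controls. Their sizes are therefore not on equal terms with those of the overexpressing libraries, here and below. The median over all genes lay between -0.0053 and 0.028 in the 6 libraries. Without overexpression 1 the members' median log2 fold change was -0.023, with 13 of 36 positive. Without overexpression 2, where most were low, 23 of 36 were positive.

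The deviation went with base composition. With the members split into 3 sets of 12 by the GC content of the coding sequence, the set with the lowest share had a median deviation of 0.20 in overexpression 1, -0.059 in overexpression 2 and 0.028 in overexpression 3. The set with the highest share had -0.14, -0.26 and 0.21. In overexpression 1, 9 of the 12 low-GC members and 2 of the 12 high-GC members were above the control mean, whereas in overexpression 3 it was 6 and 12. The 5 members that exceeded the control mean by over 0.5 in overexpression 1 were NDUFA5, NDUFS4, NDUFB3, NDUFB6 and NDUFB5. They hold ranks 1, 3, 2, 4 and 8 of 36 from the low-GC end. Seen in the printed sequences, NDUFA5 and NDUFB3 belong to the low-GC set and NDUFS7 and NDUFB7 to the high-GC set.

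Across the 36 genes, Pearson's r between coding GC content and deviation was -0.48, -0.53 and 0.41 in overexpression 1, 2 and 3, and -0.13, -0.27 and 0.41 in control 1, 2 and 3. These are descriptions, since the genes share libraries and the low-GC members are also the less abundant. GC content had an r of 0.62 with the log2 FPKM, and the median level was 4.56 FPKM in the low-GC set and 85.8 FPKM in the high-GC set. Over all genes with a known GC content, the 5113 with the lowest share had a median deviation of 0.39 in overexpression 1, and the 5113 with the highest share -0.089. That share, like the one in the GC correction, is of the longest transcript and not of the coding sequence. With a GC correction in each library the members' median log2 fold change was -0.026, and 15 of 36 were positive.

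**Figure D4:**
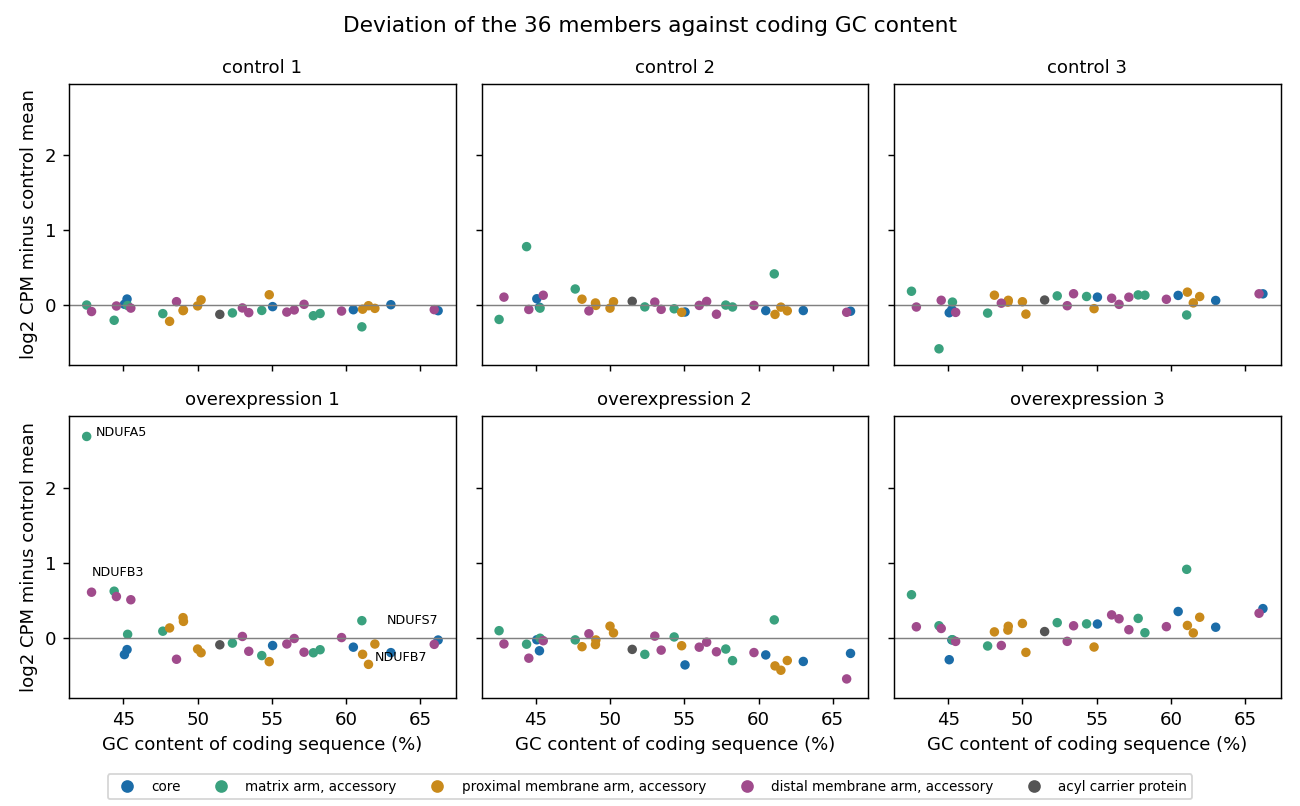
Deviation of each of the 36 members (log2 CPM minus the mean of the 3 controls) against the GC content of its coding sequence, 1 panel for each library, coloured by role. In overexpression 1 and 2 the points slope down to the right, with r of -0.48 and -0.53, and in control 3 and overexpression 3 they slope up, with r of 0.41 in each. NDUFA5 is at 2.68 in overexpression 1.

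The mitochondrially encoded subunits had larger log2 fold changes than most nuclear ones. Their mRNAs are cut from long precursors, shared between genes of the same strand, and MT-ND4L and MT-ND4 overlap. The 7 are therefore not independent of each other. All 7 MT-ND mRNAs had a positive log2 fold change, with a median of 0.25, and 6 of 7 did so with upper-quartile scaling, MT-ND3 then being at -0.00044. None passed the test (adjusted p 0.994 or more). An unadjusted p under 0.05 was found for 4 of 7, beside 3.83% of all genes. With upper-quartile scaling it was found for only 1 of 7 (MT-ND2), beside 637 of all 15951 genes tested. With the GC correction it was also 1 of 7 (MT-ND1), beside 576 of 15951. For 5 of 7 the groups did not overlap in FPKM, all higher in overexpressing cells, beside 5.67% of all genes in that direction. MT-ND2, a proton-pumping subunit, had 328, 332 and 342 FPKM in control 1, 2 and 3, and 457, 439 and 396 FPKM in overexpression 1, 2 and 3. All overexpressing libraries were above all controls, and the log2 fold change was 0.32 (unadjusted p 0.00558, SE 0.082), or 0.29 without overexpression 1. A nuclear copy, MTND2P28, had 1946 to 3215 counts, up to 10.1% of those of MT-ND2, so the 2 can share reads. MT-ND1, which with the matrix arm forms the ubiquinone channel, had 323, 337 and 363 FPKM in the controls, and 428, 437 and 401 FPKM in the overexpressing libraries. It too was separate between groups, at 0.26 (unadjusted p 0.0222, SE 0.091).

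MT-ND4, a proton pump of the distal arm, had 484, 435 and 478 FPKM in the controls, and 603, 567 and 505 FPKM in the overexpressing libraries. MT-ND4L, which overlaps MT-ND4 on the mitochondrial genome (10470 to 10766 and 10760 to 12137), had 418, 395 and 428 FPKM in the controls, and 557, 507 and 465 FPKM in the overexpressing libraries. Both were separate between groups, with log2 fold changes of 0.21 (unadjusted p 0.0635, SE 0.10) and 0.25 (unadjusted p 0.0232, SE 0.089). Without overexpression 1 these were 0.17 (unadjusted p 0.160) and 0.20 (unadjusted p 0.0767). MT-ND6, the only one read from the other strand, had 134, 112 and 127 FPKM in the controls, and 149.5, 149.6 and 140.0 FPKM in the overexpressing libraries. Its groups did not overlap, and the log2 fold change was 0.19 (unadjusted p 0.107, SE 0.10). MT-ND5, the outermost pump, had 109, 94.7 and 104 FPKM in the controls, and 143, 133 and 107 FPKM in the overexpressing libraries. Overexpression 3 lay below control 1, so its groups overlapped in FPKM. In scaled CPM they did not, with 268.7, 245.4 and 225.7 in the overexpressing libraries and 219.2, 184.0 and 213.2 in the controls. The log2 fold change was 0.26 (unadjusted p 0.0396, SE 0.11), or 0.19 without overexpression 1 (unadjusted p 0.127). MT-ND3, a small subunit at the junction of the arms, had 1915, 1925 and 2027 FPKM in the controls, and 1800.0, 2371 and 2004 FPKM in the overexpressing libraries. Overexpression 1 was the lowest of all 6 libraries and overexpression 2 the highest, and the log2 fold change was 0.029 (unadjusted p 0.819, SE 0.12).

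Side by side, the median deviation of the MT-ND mRNAs was 0.28, 0.18 and 0.25 in overexpression 1, 2 and 3, against -0.084, -0.12 and 0.15 for the nuclear members. In the controls it was 0.018, -0.11 and 0.080, against -0.059, -0.024 and 0.066. The MT-ND median was therefore the higher in each overexpressing library, least so in overexpression 3. MT-ND mRNAs made up 33.7%, 32.3% and 32.6% of the summed CPM of both sets in the controls, and 37.0%, 40.4% and 32.5% in the overexpressing libraries. Overexpression 1 and 2 were above the controls in this share and overexpression 3 lay between control 2 and control 3, so the groups overlapped. No test was made of the difference between the sets. Without overexpression 1 the MT-ND median was 0.19, with 7 of 7 positive. In that fit 2 of 7, MT-ND1 and MT-ND2, had an unadjusted p under 0.05, beside 468 of 16213 genes (2.89%). With the GC correction it was 0.16, with 6 of 7 positive.

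**Figure D5:**
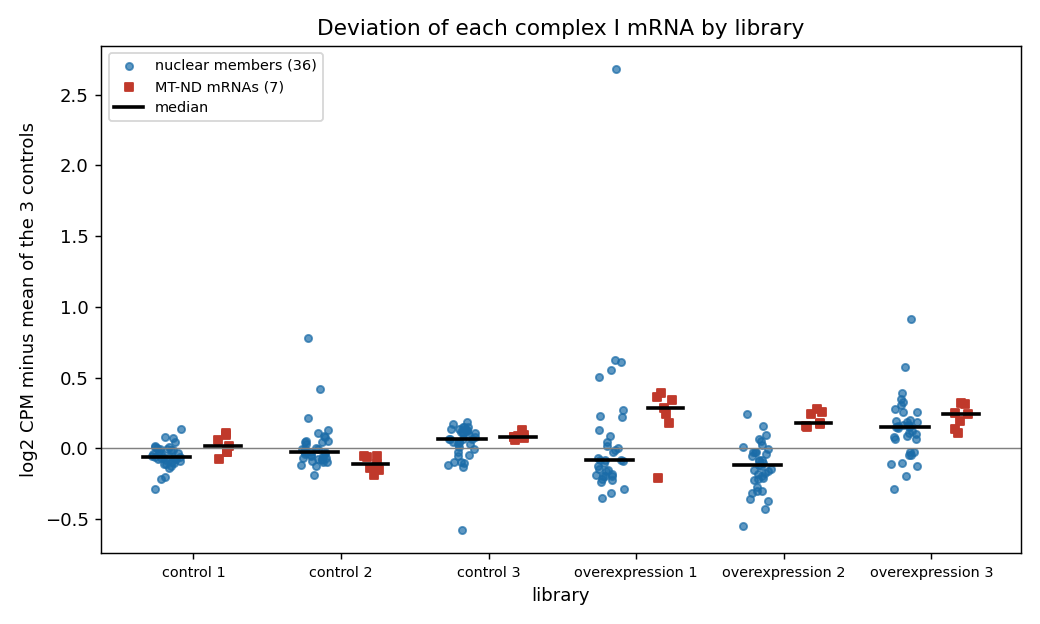
Deviation (log2 CPM minus the mean of the 3 controls) of the 36 nuclear members (circles) and the 7 MT-ND mRNAs (squares) in each library, with black bars at the medians. The MT-ND bar lies at 0.28, 0.18 and 0.25 in overexpression 1, 2 and 3, above the nuclear bar at -0.084, -0.12 and 0.15.

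The assembly factors, which build the complex and are not part of it, were measured for 18 genes. Of these, 13 had a positive log2 fold change, or 10 with upper-quartile scaling, and the median was 0.045, or 0.0035 with that scaling. With the GC correction most were negative: 6 of 18 were positive and the median was -0.038. TMEM126B, part of the assembly complex for the membrane arm, had 1.09, 1.41 and 1.24 FPKM in control 1, 2 and 3, and 26.01, 1.82 and 1.68 FPKM in overexpression 1, 2 and 3. Overexpression 1 was far above the rest, and the other 2 overexpressing libraries were also above the controls. Its log2 fold change was 2.88 (unadjusted p 0.0256, SE 1.03). TMEM126B was the only one of the 18 with an unadjusted p under 0.05, beside 3.83% of all genes. Without overexpression 1 its log2 fold change was 0.46 (unadjusted p 0.0394), in a fit where 2.89% of all genes were under 0.05. DESeq2 put it at 2.86 (SE 1.17) and gave it no p. Like NDUFA5 it was high in the library with high fibroblast markers, whose part was not tested.

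NDUFAF2, a relative of NDUFA12 that holds its place during assembly, had 6.24, 7.001 and 5.61 FPKM in the controls, and 9.54, 6.89 and 5.26 FPKM in the overexpressing libraries. Again overexpression 1 was highest and the rest overlapped, and the log2 fold change was 0.15 (unadjusted p 0.439, SE 0.18), or -0.082 without that library. NDUFAF4, an early assembly factor, had 0.564, 0.863 and 0.913 FPKM in the controls, and 1.06, 1.01 and 0.786 FPKM in the overexpressing libraries. Control 1 was lowest, the groups overlapped, and the log2 fold change was 0.23 (unadjusted p 0.373, SE 0.24). ACAD9, a relative of fatty acid dehydrogenases that works with TMEM126B, had 7.35, 7.46 and 7.20 FPKM in the controls, and 6.12, 8.06 and 7.16 FPKM in the overexpressing libraries. Overexpression 1 was its lowest library and overexpression 2 its highest, and the log2 fold change was -0.087 (unadjusted p 0.479, SE 0.12).

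Of the 9 regulators of respiratory genes, 5 had a positive log2 fold change and the median was 0.16. Without overexpression 1, 3 were positive and the median was -0.062. None had an unadjusted p under 0.05 in either of these fits. TFAM, which packages and transcribes mitochondrial DNA, had 1.80, 2.38 and 2.10 FPKM in the controls, and 3.66, 2.58 and 2.07 FPKM in the overexpressing libraries. Overexpression 1 was the highest, and the log2 fold change was 0.35 (unadjusted p 0.129, SE 0.21), or 0.12 without that library. TFAM was singled out after its values were seen, and it was not the largest of the 9. GABPA was, at 1.14 (unadjusted p 0.119, SE 0.64), or -0.078 without overexpression 1. GABPB1 was the most negative, at -0.35 (unadjusted p 0.179, SE 0.23), or -0.54 with the GC correction (unadjusted p 0.0481). In the nuclear-encoded subunits of complexes II to V, 22 of 41 were positive, with a median of 0.016. With upper-quartile scaling 18 were positive and the median was -0.017. ATP5MJ, an ATP synthase subunit named here after its value was seen, was the 1 gene of the 41 with an unadjusted p under 0.05, beside 3.83% of all genes, at 0.39 (unadjusted p 0.0264, SE 0.14). It was no longer under 0.05 with upper-quartile scaling (unadjusted p 0.0531) or with the GC correction (unadjusted p 0.0591).

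The promoters of 32 members were available from RefSeq on GRCh38.p14, each 300 bases long from 250 before to 50 after the gene start. Motifs of factors known for respiratory genes were counted on both strands. The YY1 motif AAGATGGC was present in 7 of 32 (21.9%), beside 3.52% of all 27305 gene symbols with a promoter. The NRF1 motif, GCGCA and GCGC with any 1 base between them, was present in 6 (18.8%), beside 6.98% of all. The ETS motif CCGGAAG, bound by GABPA among others, was present in 5 (15.6%), beside 12.2% of all. NDUFA3 and NDUFA9 held both the YY1 and the NRF1 letters. The 27305 symbols were not limited to the 15951 genes tested here, and no set matched to the members in level was used. A match is a run of letters and not a measured binding site, and the motif carriers were not compared between groups.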

How the data were processed

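Messenger RNA of 6 MDA-MB-231 libraries, 3 overexpressing tsRNA-Gly-5-0006 and 3 controls, was analysed from the deposited table. Per the submitters' processing notes, the authors used cutadapt 1.9, HISAT2 2.0.4, StringTie 1.3.4d, edgeR and the build hg38. The annotation release and strandedness are not given in the sources used here. The table holds the authors' FPKM values, scaled for gene length and library depth, and deposited expected counts that are whole numbers, pile up at 1 and at multiples of 4, and are not scaled between libraries. They derive from coverage, so no counting interval is given.

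Counts of all genes were tested with edgeR 4.0.16 in R 4.3.3 (quasi-likelihood, 2-sided, TMM scaling, filterByExpr with a minimum count of 10, group as the only term). P-values were adjusted by Benjamini-Hochberg over 15951 genes at a threshold of 0.05. Genes varied between libraries of a group by a biological coefficient of variation of 30.7%. Intervals are 95% intervals of this fit. Means and SDs are of FPKM unless CPM is named.

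Members and gene lists were chosen with earlier results of these data known. Library values are given for the 10 members with the smallest p, the 3 highest, the 3 lowest, any moving by over 0.5 when a library is left out, the MT-ND mRNAs, and the 4 assembly factors with the smallest p. Other members shown by library, the GC correction, the 3 sets by GC content and the sums of overlapping rows were chosen after seeing the data. Gene coordinates are those of the deposited table. GC content, transcript lengths and coding sequences come from GENCODE 29, with the shortest of the best-ranked transcripts of a gene as its principal one. Members were ordered by the GC content of the coding sequence. The GC correction and the sets over all genes used that of the longest transcript. Alternatives were DESeq2 1.42.0, limma 3.58.1 on log2(FPKM + 1) or log2(FPKM + 0.1), upper-quartile or RLE scaling, a filter at a mean of 5 FPKM or none, a block for the replicate number, robust empirical Bayes, counts divided by 4, rows of 1 symbol summed, and each library left out. The fit was tested on simulated data.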

Additional observations from a re-analysis of the deposited data

How the results depend on the processing

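Over 19 alternatives, 0 of 806 values for members and MT-ND mRNAs passed the test. All 36 members stayed uncalled with DESeq2, which called 12 genes in all, and with each library left out, when 0 to 4 genes were called in all. The members' median stayed small but changed sign. It ranged from -0.11 to 0.049 with a library left out, and it was -0.045 with upper-quartile scaling. It was 0.0044 with a mean FPKM of at least 5, and 0.019 to 0.027 in limma. The filter at 5 FPKM left out the members with a lower mean, and the filtered limma fits left out NDUFA5. The medians and positive counts of these filtered fits are therefore over fewer than 36 members. Between 13 and 23 members were positive with a library left out (23 without overexpression 2, where most members were low), 12 with upper-quartile scaling, 21 or 22 in limma, and 14 to 16 in the other alternatives. The MT-ND median was 0.16 and the assembly factor median -0.038 with the GC correction, and the assembly median ranged from 0.016 to 0.10 with a library left out. Same-numbered libraries did not deviate together (correlations of -0.027, 0.039 and 0.065, and overexpression 1 had its highest correlation with control 2), so the numbers were not taken to pair them. With the replicate number as a block, 0 members and 0 genes were called, 15 members were positive and their median was -0.014, so the block changed no call.

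The sign of the log2 fold change differed for 21 genes in some alternative, all with a value of at most 0.17 in size when all 6 libraries and the main settings were used. The cause was not tested. With upper-quartile scaling the sign changed for NDUFV1 (-0.0081), NDUFA12 (-0.033), NDUFS5 (-0.013) and MT-ND3 (-0.00044). With a mean FPKM of at least 5 the sign changed for NDUFA6 (0.0044), NDUFS6 (0.0043), NDUFV3 (0.022), NDUFA11 (0.0044) and NDUFB11 (0.019). In limma on log2(FPKM + 1), filtered or not, the sign changed for NDUFA6 (0.015), NDUFA9 (0.019), NDUFS6 (0.015), NDUFV3 (0.028), NDUFA11 (0.0080), NDUFB1 (0.035) and NDUFB11 (0.030). In limma on log2(FPKM + 0.1) the sign changed for NDUFA6 (0.016), NDUFA9 (0.027), NDUFS6 (0.015), NDUFV3 (0.032), NDUFA11 (0.0080), NDUFB1 (0.042) and NDUFB11 (0.030). With RLE scaling the sign changed for NDUFA12 (-0.0046). With DESeq2 the sign changed for NDUFA12 (-0.0046). With the GC correction the sign changed for NDUFA12 (-0.027), NDUFS6 (0.014), NDUFB5 (-0.041), NDUFB11 (0.018) and MT-ND3 (-0.12). With no filter the sign changed for NDUFB1 (0.0042). With counts divided by 4 the sign changed for NDUFB1 (0.00075). With a library left out, the values ran, for NDUFS3 from -0.23 to 0.050, NDUFS7 from -0.12 to 0.19, NDUFV1 from -0.18 to 0.13, NDUFA6 from -0.15 to 0.074, NDUFA9 from -0.080 to 0.11, NDUFA12 from -0.019 to 0.028, NDUFS4 from -0.11 to 0.66, NDUFS6 from -0.18 to 0.059, NDUFV3 from -0.11 to 0.095, NDUFA11 from -0.19 to 0.11, NDUFS5 from -0.072 to 0.11, NDUFB1 from -0.019 to 0.029, NDUFB2 from -0.034 to 0.13, NDUFB5 from -0.050 to 0.26, NDUFB6 from -0.066 to 0.36, NDUFB7 from -0.30 to 0.13, NDUFB9 from -0.18 to 0.025, NDUFB10 from -0.10 to 0.13, NDUFB11 from -0.094 to 0.082, NDUFAB1 from -0.13 to 0.00099 and MT-ND3 from -0.038 to 0.13.

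These fits cannot resolve differences smaller than the intervals given. Most of the size of the NDUFA5 and TMEM126B values came from overexpression 1, and without it they were 0.34 and 0.46. In that edgeR fit the unadjusted p was 0.145 for NDUFA5 and 0.0394 for TMEM126B. The counts derive from coverage, so they have no counting interval. Reads shared by overlapping rows, the strandedness of the libraries and the base composition of low-GC members each bear on single values, and their part was not tested. With 3 libraries a group, 1 library can set a median, as the range of the positive count shows.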
